A study of Rattus norvegicus with 3 samples.

Results

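Central myelin genes were followed across the cells of the injured rat spinal cord. The 9 members were matched by symbol in the deposited gene tables, and all 9 were found among 25199 features: Mbp (ENSRNOG00000016516), Mog (ENSRNOG00000000775), Mag (ENSRNOG00000021023), Mobp (ENSRNOG00000018700), Cldn11 (ENSRNOG00000010263), Cnp (ENSRNOG00000017496), Opalin (ENSRNOG00000022386), Ermn (ENSRNOG00000021472) and Mal (ENSRNOG00000015445). Wild type rats of 6 to 8 weeks had received PBS (the control injection), G-HD or MPG-HD at a spinal cord injury, and all 3 groups share that injury. The series title places the injections in work on a hydrogel depot. A 5-mm piece of cord around the injury from 5 animals per condition gave 1 single-cell 3′ library per condition, with 1513 (PBS), 2619 (G-HD) and 2339 (MPG-HD) barcodes. The labels state neither the time after injury nor whether the animals were pooled before the library was made, and no uninjured cord was analysed here.

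Myelin of the brain and spinal cord is made by oligodendrocytes, which wrap axons in compacted membrane, whereas Schwann cells make the myelin of peripheral nerve. Oligodendrocytes arise from precursors marked by Pdgfra, pass through a newly formed stage marked by Enpp6 and Bcas1, and then raise structural myelin genes. After injury, macrophages and microglia clear myelin debris, and they can take up RNA with it; RNA released by broken cells can also enter any droplet of a single-cell preparation.

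Filtering left 1373, 2341 and 2087 cells with medians of 10296, 9257 and 10425 unique molecular identifiers (UMIs, which count captured RNA molecules) in PBS, G-HD and MPG-HD. The libraries shared 4 to 7 barcodes pairwise among kept cells. Each condition is 1 library, so no test between conditions was possible, and every interval given here is a 95% interval of counting error alone. Cells were clustered with the 9 members left out, and classes were named from other markers. Levels are given in CPM, the UMIs of a gene per 1000000 UMIs summed over a class. A 3′ UMI counts a transcript once whatever its length, so no length scaling was applied, and genes are compared with each other only as shares of UMIs.

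The promoter letters are shown for 3 members whose spread over cell types differs below: Cnp, found in every class, Cldn11, found also in fibroblasts, and Mal, nearly absent from precursors. Each run is the 250 bases before the RefSeq transcript start (GRCr8), 5′ to 3′ on the gene's strand. Capitals mark every match, on either strand, to CTGGCAC or CTGGTAC (letters of the site of MYRF, the regulator that drives myelin genes), ACAATG or ACAAAG (SOX factors) and CAGCTG (an E-box).
Cnp chr10:86011254-86011503 (plus strand): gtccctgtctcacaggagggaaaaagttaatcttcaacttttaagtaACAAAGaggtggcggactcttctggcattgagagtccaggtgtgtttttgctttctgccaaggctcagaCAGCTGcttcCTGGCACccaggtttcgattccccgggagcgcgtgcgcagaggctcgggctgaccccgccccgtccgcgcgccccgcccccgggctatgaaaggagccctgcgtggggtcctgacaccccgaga
Cldn11 chr2:114149540-114149789 (minus strand): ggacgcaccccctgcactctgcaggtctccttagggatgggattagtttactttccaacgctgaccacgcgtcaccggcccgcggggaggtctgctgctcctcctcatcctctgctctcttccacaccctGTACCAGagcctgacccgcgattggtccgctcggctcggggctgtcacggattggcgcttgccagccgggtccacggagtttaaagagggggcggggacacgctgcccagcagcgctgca
Mal chr3:135341424-135341673 (minus strand): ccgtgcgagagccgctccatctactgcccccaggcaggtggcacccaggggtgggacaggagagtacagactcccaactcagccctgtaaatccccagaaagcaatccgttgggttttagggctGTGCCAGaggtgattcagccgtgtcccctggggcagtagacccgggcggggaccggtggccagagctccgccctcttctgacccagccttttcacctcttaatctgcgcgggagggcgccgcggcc
RefSeq windows matched 7 of the 9 members. The windows of Mag and Opalin lie partly within the annotated gene, so their matches may not lie before its first start. Mbp has 2 windows on the plus strand, the upstream one without a match, so all its matches lie in the downstream one. A member counted if any of its windows matched, while the shares count single windows. CTGGCAC was present for Mag, Cnp, Opalin and Mal, 4 of 7 members, against 3.78% of all 33469 windows of this length. CTGGTAC was present for Cldn11 alone among the 7, against 1.78%. ACAAAG was present for 5 of 7 (Mbp, Mag, Mobp, Cnp and Opalin) against 16.3%, ACAATG for 2 (Mbp and Opalin) against 11.1%, and CAGCTG for 3 (Mbp, Cnp and Opalin) against 12%. These matches are letters, not measured binding.

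Oligodendrocyte-like cells carried most of the member RNA, and its level in CPM hardly differed between the 3 libraries. These cells numbered 169, 133 and 328 in PBS, G-HD and MPG-HD. They were 12.3% of cells in PBS (10.6 to 14.2), 5.68% in G-HD (4.78 to 6.70) and 15.7% in MPG-HD (14.2 to 17.3). With so few cells they held 78.1%, 76.4% and 83.8% of all member UMIs of their libraries, and precursor-like cells held 12.8%, 9.29% and 8.23%. Their naming rested on genes outside the set, among them Aspa, found in 88.7% of these cells, Hapln2 in 73.7% and Klk6 in 68.9%. Sox10, which was not a naming marker, was found in 90.8% of them and in 79.7% of Schwann-like cells. The member sum stood at 37512, 38569 and 36525 CPM in PBS, G-HD and MPG-HD.

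Among the proteins of compact myelin, Mbp, which holds the inner membrane faces together, stood at 9444, 10099 and 9629.6 CPM in oligodendrocyte-like cells of PBS, G-HD and MPG-HD. Mobp, another basic protein of compact myelin, stood at 2665, 2915 and 2580.3 CPM, and Mal, a raft proteolipid that sorts myelin membrane, at 2355, 1746 and 2208 CPM. Mbp was nearly level, Mobp was highest in G-HD, and Mal was lowest in G-HD. Of the surface and adhesion proteins, Mog, on the outermost lamella, stood at 1776, 1473 and 1551 CPM. Mag, which faces the axon, stood at 4041, 4727 and 4136 CPM, and Cldn11, the tight junction protein of myelin, at 7955, 8173 and 7958 CPM. Mog was highest in PBS and Mag in G-HD, and Cldn11 was nearly level. Of the remaining members, Cnp, the cyclic nucleotide phosphodiesterase of cytoplasmic channels, stood at 7293, 7880.4 and 6737 CPM. Opalin, a transmembrane sialoglycoprotein of oligodendrocytes, stood at 751, 643 and 646 CPM. Ermn, which binds the actin cytoskeleton in mature oligodendrocytes, stood at 1231, 913 and 1079.8 CPM. Both Opalin and Ermn were highest in PBS.

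No member of the 9 differed 1.5-fold or more between any pair of libraries in oligodendrocyte-like cells, the fold used throughout as the mark for a difference. Over all genes with at least 30 UMIs, 12.2% passed that fold for G-HD over PBS, 10.7% for MPG-HD over PBS and 10.1% for MPG-HD over G-HD. The members' ratios ran from 0.741 to 1.17 for G-HD over PBS, from 0.860 to 1.02 for MPG-HD over PBS and from 0.855 to 1.26 for MPG-HD over G-HD. The member sum had ratios of 1.03 (1.02 to 1.04), 0.974 (0.966 to 0.981) and 0.947 (0.939 to 0.955) in that order. The lowest single ratios were those of Mal and Ermn in G-HD, both 0.741 of PBS. Of 27 other oligodendrocyte genes, 25 were measured for G-HD over PBS, and 2 of them were lower (Car2, a carbonic anhydrase, and Qdpr, a pteridine reductase) and none higher. For MPG-HD over PBS Car2 alone was lower among 25, and for MPG-HD over G-HD none of 25 passed the fold. Among the regulators, Olig1 was 2.19-fold and Olig2 1.72-fold higher in G-HD than in PBS, while Sox10 stood at a ratio of 1.03.

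**Figure D1:**
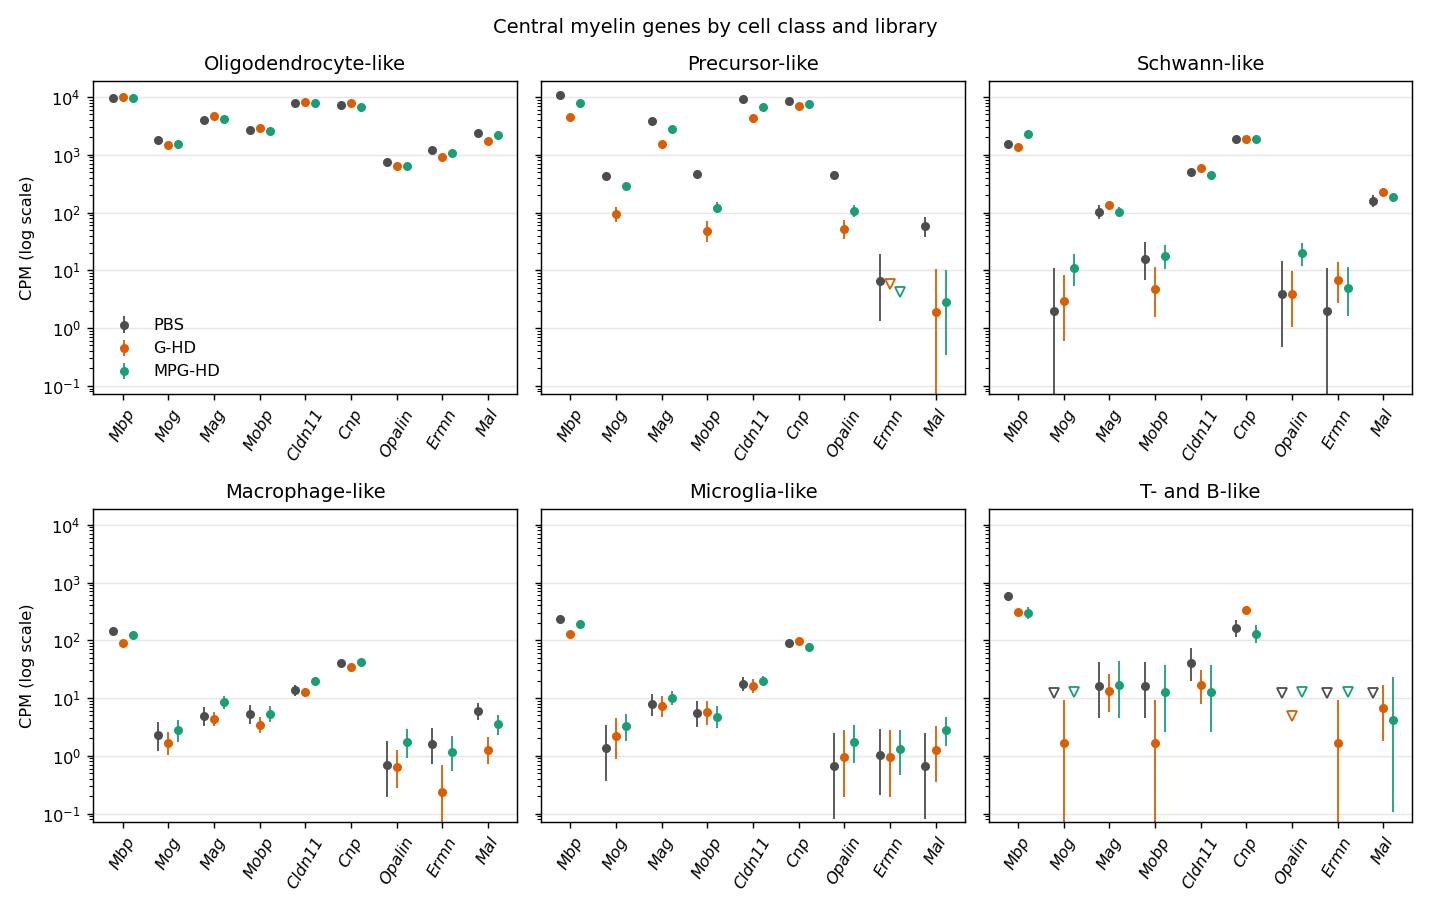
CPM on a log axis of each member in 6 cell classes, one point per library with its 95% Poisson interval. Open triangles mark a sum of 0 UMIs and stand at the level of 3 UMIs. The members lie within 1.5-fold of each other across libraries in oligodendrocyte-like cells and fall by orders of magnitude toward phagocytes and lymphoid cells, where Mbp and Cnp lead.

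The oligodendrocyte-like cells fell into 2 clusters that differed in every library by which members they carried. Cluster 4 (106, 71 and 168 cells) was led by Klk6 and Hapln2, and cluster 7 (63, 62 and 160 cells) by Masp1 and Gpd1 beside several members, although members took no part in the clustering. The mean cell of cluster 4 held 423, 448 and 413 member UMIs in PBS, G-HD and MPG-HD, and that of cluster 7 held 803, 697 and 704. Ermn went the other way: its level was 1588, 1261 and 1573 CPM in cluster 4 and 627, 479.7 and 576 CPM in cluster 7. Mbp stood at 6727, 6512 and 6224 CPM in cluster 4 and 14044, 14559.6 and 13109.9 CPM in cluster 7, higher in cluster 7 in all 3 libraries. Mal followed with 1346, 1271 and 1516 against 4064, 2337 and 2915 CPM, and Opalin with 486, 356 and 376 against 1199, 999.8 and 921 CPM. The genes that separated these clusters vary with the members, so the contrast is a description with no test.

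Within clusters the libraries differed for single members more than in the class in some cases and less in others. No share over all genes was taken within clusters. In cluster 7, Mal in G-HD stood at 0.575 (0.545 to 0.607) of its PBS level, past 1.5-fold, and in MPG-HD at 0.717 (0.690 to 0.746). In cluster 4 the same ratios were 0.944 (0.882 to 1.01) and 1.13 (1.07 to 1.19). Opalin in cluster 4 was 0.733 (0.647 to 0.830) in G-HD and 0.775 (0.704 to 0.853) in MPG-HD of its PBS level. The member sum of cluster 7 in MPG-HD was 0.854 (0.845 to 0.863) of that in PBS, and that of cluster 4 was 0.982 (0.970 to 0.994).

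**Figure D2:**
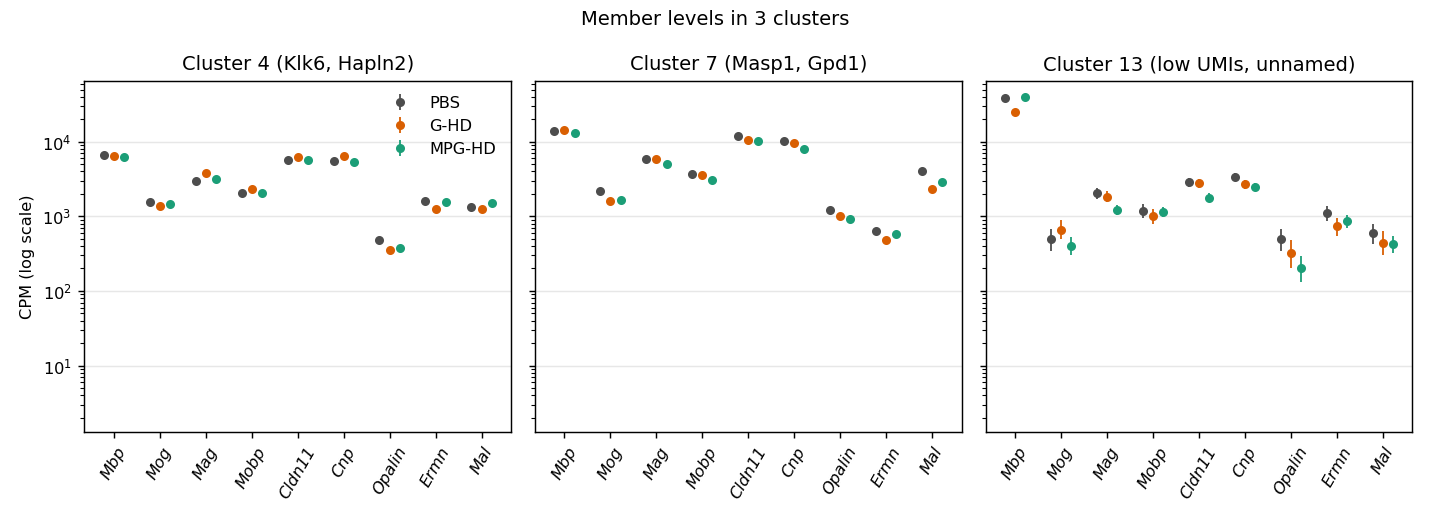
CPM on a log axis of each member in the 2 oligodendrocyte-like clusters and in cluster 13, an unnamed cluster of low-UMI cells, one point per library with its 95% Poisson interval. Ermn is higher in cluster 4 and the other members are higher in cluster 7, and Mbp stands far above the other members in cluster 13.

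Precursor-like cells (41, 63 and 83) held a member sum of 33836, 17622 and 25513 CPM in PBS, G-HD and MPG-HD, which is close to that of oligodendrocyte-like cells in PBS and well below it in G-HD. The members were not carried alike. Cnp stood at 8693, 6930.2 and 7578 CPM and Cldn11 at 9132, 4414 and 6836 CPM. Both were within 1.5-fold of the oligodendrocyte-like level in each library, except Cldn11 in G-HD. Mobp stood at only 459, 48.3 and 121 CPM and Opalin at 450.3, 52.1 and 106 CPM. Ermn had 3, 0 and 0 UMIs and Mal 27, 1 and 2 UMIs, so neither late gene could be compared.

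Of the 7 members measured in precursor-like cells, 6 were lower in G-HD than in PBS by 1.5-fold or more (Mbp, Mog, Mag, Mobp, Cldn11 and Opalin), where 27.3% of all genes passed in either direction. In MPG-HD 2 of 7 were lower than in PBS (Mobp and Opalin; 19.0% of all genes), and 6 of 7 were higher than in G-HD (18.5% of all genes). Mbp stood at 10730.3, 4553 and 7745 CPM, a G-HD over PBS ratio of 0.424 (0.404 to 0.446). Mag stood at 3873, 1529 and 2833 CPM (0.395, interval 0.363 to 0.430) and Mog at 433, 92.7 and 291 CPM (0.214, interval 0.153 to 0.295). Cnp did not pass the fold at 0.797 (0.762 to 0.834). The median log2 ratio of the 7 members was -1.34 for G-HD over PBS, -0.47 for MPG-HD over PBS and 0.89 for MPG-HD over G-HD, beside medians of 0.07, 0.00 and -0.09 over all genes tested. Other genes of the lineage passed the fold as well: for G-HD over PBS the oligodendrocyte genes Aspa, Ugt8, Gjb1, Tspan2 and Gpr37 were lower and Evi2a was higher, among 19 measured. Genes of lipid-laden phagocytes also differed in this class: for G-HD over PBS 5 of 8 measured were higher (Apoe, Gpnmb, Fabp5, Spp1 and Cd68), and 5 of 8 were lower in MPG-HD than in G-HD (Apoe, Gpnmb, Lgals3, Spp1 and Cd68). Their list summed to 4235, 5692 and 4235 CPM in precursor-like cells of PBS, G-HD and MPG-HD, against 151503, 153881 and 148028 CPM in macrophage-like cells. Their part in the members' values was not tested.

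The class held cells of 2 stages. Finer clustering (resolution 1.2) gave one group of 118 cells with Enpp6 in 79.7% and Pdgfra in 6.78% of cells. A second group of 100 cells, 31 of them from the cycling cluster, had Pdgfra in 55.0% and Enpp6 in 1.00%. The Enpp6 group had 31, 36 and 51 cells for PBS, G-HD and MPG-HD, all of the precursor-like class. The Pdgfra group had 15, 44 and 41 cells, of which 10, 27 and 32 were of the class. A cell of the Enpp6 group held 497, 233 and 334 member UMIs on average, and one of the Pdgfra group 20.8, 26.4 and 26.9. Within the class, the member sum of the Enpp6 cells had CPM ratios of 0.716 (0.697 to 0.735) for G-HD over PBS and 0.878 (0.859 to 0.897) for MPG-HD over PBS. The Pdgfra cells of the class had 1.14 (0.974 to 1.33) and 1.35 (1.16 to 1.58). The G-HD library was thus below PBS in the Enpp6 cells but not in the Pdgfra cells, and the part of the cell mix in the ratio of the class, 0.521, was not tested. At resolution 1.2, where the precursor-like class loses the Enpp6 group and gains the 31 cycling cells, the ratio was 1.15.

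Within the Enpp6 group the G-HD library was again lower for most members. Mbp stood at 12531, 7702 and 10692 CPM, with a G-HD over PBS ratio of 0.615 (0.585 to 0.646), and Mag at 4538, 2647 and 3995 CPM (0.583, interval 0.536 to 0.635). Mobp stood at 536, 67.0 and 168 CPM and Opalin at 528, 83.8 and 149 CPM, both highest in PBS. Single cells carried much of these: 1 of 31 PBS cells held 37.0% of the Mobp UMIs, and 1 of 36 G-HD cells 72.0% of the Opalin UMIs. With the highest cell of each library left out, Mobp stood at 356, 41.2 and 123 CPM, in the same order. Cnp differed little, at 9795, 10211 and 9558 CPM (1.04, interval 0.994 to 1.09). In the Pdgfra group, Cnp was found in all 100 cells, at 1876, 2008 and 2311 CPM, and Mbp at 318, 316 and 945 CPM, where 1 of 41 MPG-HD cells held 42.4% of the Mbp UMIs. Mog, Mag, Mobp, Opalin, Ermn and Mal had at most 11 UMIs each per library in the Pdgfra group.

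**Figure D3:**
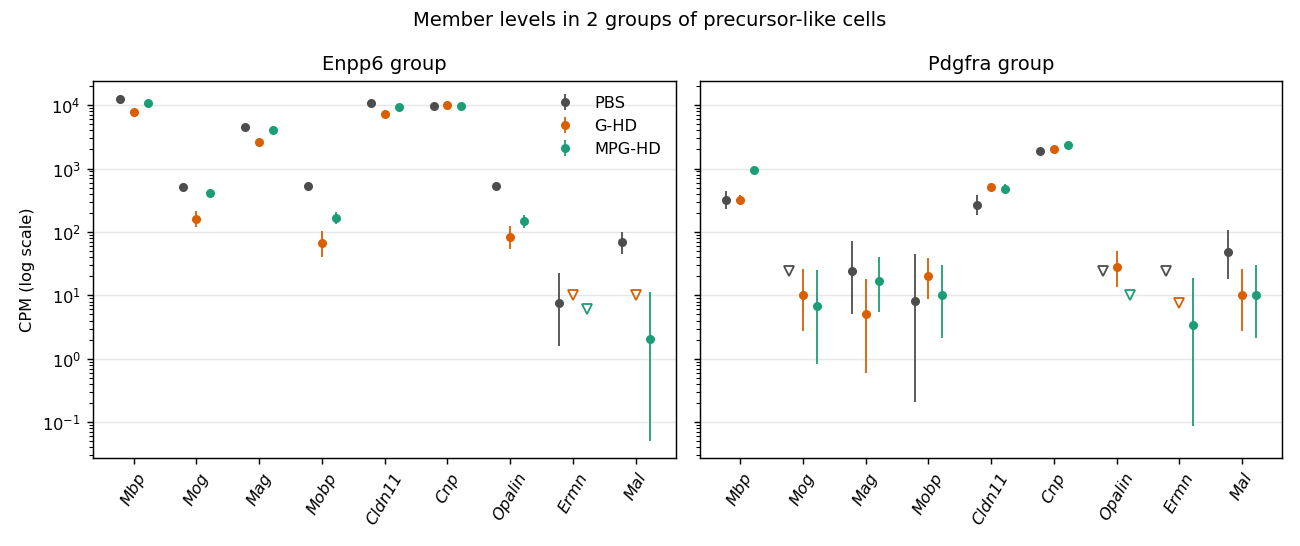
CPM on a log axis of each member in the Enpp6 group (31, 36 and 51 cells) and the Pdgfra group (15, 44 and 41 cells), one point per library with its 95% Poisson interval. Open triangles mark 0 UMIs and stand at the level of 3 UMIs. In the Enpp6 group the G-HD points lie lowest for Mbp, Mog, Mag, Mobp, Cldn11 and Opalin but not for Cnp, and in the Pdgfra group Cnp stands above the other members.

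Schwann-like cells (96, 203 and 208), marked by Pmp22 and Egfl8, carried 5 of the 9 members at measurable levels. The member sum stood at 4174, 4204 and 4976 CPM in PBS, G-HD and MPG-HD. Cnp stood at 1851, 1865 and 1866 CPM, the same to within counting error in all 3 libraries, and was found in 95.8, 96.1 and 97.6% of cells. Mbp, which peripheral myelin shares with central myelin, stood at 1529.9, 1379 and 2331 CPM. Cldn11 stood at 508, 584 and 439 CPM, Mal at 159, 223 and 185 CPM and Mag, which noncompact Schwann cell myelin also carries, at 102, 134 and 102 CPM. Mog had 1, 3 and 11 UMIs, Mobp 8, 5 and 18, Opalin 2, 4 and 20 and Ermn 1, 7 and 5, all too few for a comparison.

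Mbp was the one member past 1.5-fold in Schwann-like cells, higher in MPG-HD than in PBS (1.52, interval 1.40 to 1.65; 1 of 5 members, 15.0% of all genes) and than in G-HD (1.69, interval 1.58 to 1.81; 1 of 5, 12.1% of all genes). For G-HD over PBS 0 of 5 passed, against 17.4% of all genes. The share of Schwann-like cells with an Mbp UMI did not follow that order, at 79.2, 64.0 and 72.1%. One PBS cell held 14.8% of all member UMIs of its class and 26.0% of its Mbp. With the cell highest in Mbp left out of each library, Mbp stood at 1162, 1266 and 2019.7 CPM.

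Finer clustering (resolution 1.2) set 35 Schwann-like cells apart from 471 others, and the members divided between these groups. The split was looked at after the values of the class were seen. The 35 cells (4 from PBS, 20 from G-HD and 11 from MPG-HD) held Pmp22, a membrane protein of peripheral myelin, at 28756, 16633 and 29076 CPM, against 1309, 1447 and 1397 CPM in the others, and Prx, a scaffold protein of myelinating Schwann cells, at 1048, 830.1 and 554 against 4.25, 5.77 and 2.16 CPM. Mbp stood at 10535, 5881 and 8301 CPM in these Pmp22-rich cells and 818, 590.1 and 1714 CPM in the others. Mag stood at 1156, 714 and 816 against 19.1, 32.3 and 28.1 CPM, and Mal at 1989, 1319 and 1599.7 against 14.9, 30.0 and 38.9 CPM. Mbp, Mag and Mal were thus higher in the Pmp22-rich cells of all 3 libraries. The PBS values rest on 4 cells, where the highest cell for each gene held 51.5% of Mbp, 48.8% of Mag and 50% of Mal UMIs. With that cell left out, Mbp, Mag and Mal stood at 7804, 904 and 1520 CPM in PBS. Cldn11 went the other way, with 2, 2 and 3 UMIs in the Pmp22-rich cells and 544, 696 and 481 CPM in the others, and Cnp stood near the same level in both, 2204, 2265 and 2352 against 1823, 1825 and 1816 CPM. Mog, Mobp, Opalin and Ermn had at most 1 UMI each per library in the Pmp22-rich cells, where 3 counts are the floor. In the other cells 1 MPG-HD cell held 21.2% of the Mbp UMIs, and with the cell highest in Mbp left out of each library Mbp stood at 736, 535 and 1364 CPM, highest in MPG-HD. Over the whole class Pmp22 had ratios of 1.12 for G-HD over PBS and 1.2 for MPG-HD over PBS.

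Phagocytes, the macrophage-like (365, 722 and 492) and microglia-like cells (245, 262 and 363) together, carried a few member UMIs each. The sum was 3.76, 2.72 and 3.54 UMIs per cell in PBS, G-HD and MPG-HD and 265, 171 and 247 CPM, lowest in G-HD on both scales. That is 0.00666, 0.00483 and 0.00638 of the UMIs in an oligodendrocyte-like cell of the same library. Mbp made up most of them, with 2.47, 1.55 and 2.13 UMIs per cell, and Cnp came next with 0.802, 0.754 and 0.789. Opalin and Ermn had 6, 11 and 21 and 12, 6 and 15 UMIs over all phagocytes of PBS, G-HD and MPG-HD. Microglia-like cells held more than macrophage-like cells, 4.27, 3.15 and 3.96 against 3.42, 2.57 and 3.22 member UMIs per cell, in each library.

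The UMIs were spread thinly over many cells. At least 1 member UMI was found in 89.7%, 85.1% and 92.7% of phagocytes, with a median of 3, 2 and 3 UMIs. At least 10 were found in 30, 28 and 34 cells, and at least 50 in 2, 2 and 0 cells. The 7, 10 and 9 cells with the most held 12.9%, 14.7% and 8.46% of the phagocytes' member UMIs. Cells with a UMI of an oligodendrocyte regulator gene (Olig1, Olig2, Sox10, Myrf or Nkx6-2) were 5.57%, 5.59% and 6.08% of phagocytes, and leaving them out gave a G-HD over PBS ratio of the member sum of 0.644 in place of 0.647.

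Lymphoid cells (T-like and B-like, 58, 206 and 67 cells) make no myelin and served as a reference for what any droplet held. Cnp is present in B-like cells of G-HD, and whether lymphoid cells transcribe members themselves was not tested. The lymphoid cells carried 3.47, 2.00 and 1.69 member UMIs per cell in PBS, G-HD and MPG-HD. Phagocytes over lymphoid cells gave ratios per cell of 1.09 (0.940 to 1.26), 1.36 (1.22 to 1.51) and 2.10 (1.74 to 2.55). In PBS this interval held 1, and in G-HD and MPG-HD it lay above 1. For Mbp alone the ratios were 1.00 (0.845 to 1.2), 1.73 (1.48 to 2.02) and 2.01 (1.59 to 2.59). One lymphoid cell held 17.4%, 12.6% and 20.4% of the lymphoid member UMIs in the 3 libraries. Leaving out the highest cell of each class gave 1.26 (1.08 to 1.49) in PBS, above 1. Without Mbp the ratio was 1.29 (0.987 to 1.71) in PBS and 1.06 (0.919 to 1.23) in G-HD, both intervals holding 1, and 2.24 (1.65 to 3.13) in MPG-HD. Over the sum, Mbp alone and the sum without Mbp, the interval lay above 1 each time in MPG-HD alone. The lymphoid reference itself differed between libraries. B-like cells made up 100 of 206 lymphoid cells for G-HD, but 8 of 58 for PBS and 13 of 67 for MPG-HD. Cnp was 49.2% of lymphoid member UMIs for G-HD, 19.9% for PBS and 27.4% for MPG-HD. The G-HD ratio was higher without Cnp, and against endothelial-like cells all 3 intervals lay above 1, both given below. An excess particular to MPG-HD is thus not shown.

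The direction turned with the scale. Phagocytes had median totals of 12484, 14556 and 13280 UMIs and lymphoid cells 3184, 2564 and 3360. As a share of all UMIs the members stood at 816, 682 and 477 CPM in lymphoid cells, above the phagocytes in all 3 libraries, with phagocyte over lymphoid ratios of 0.324, 0.251 and 0.517. The share of cells with an Mbp UMI was 76.2, 62.5 and 75.1% in phagocytes and 51.7, 25.7 and 43.3% in lymphoid cells. With each cell thinned to 1000 UMIs it was 13.8, 8.20 and 12.9% and 26.8, 12.8 and 22.7%, lower in phagocytes, with 2, 8 and 5 phagocytes and 2, 3 and 1 lymphoid cells too shallow. The thinned share of phagocytes is thus at or below that of lymphoid cells and is not read as expression. Endothelial-like cells (35, 40 and 31), with median totals nearer to those of phagocytes, held 2.29, 1.75 and 2.77 member UMIs per cell and 178, 168 and 243 CPM. Against them the phagocyte ratio per cell was 1.65 (1.32 to 2.08), 1.56 (1.23 to 2.00) and 1.28 (1.03 to 1.60). UMIs that were engulfed, free in the droplet or transcribed by the cell itself were not distinguished by any of these measurements, and their parts were not tested.

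**Figure D4:**
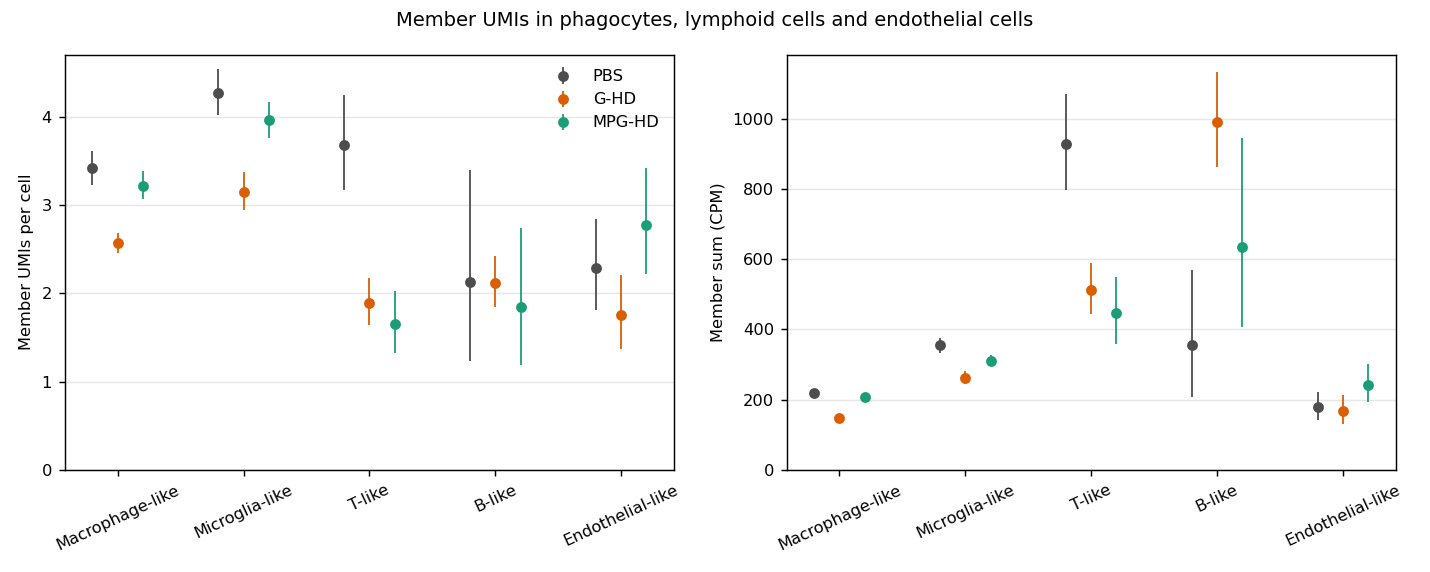
Member UMIs per cell (left) and member sum in CPM (right) in macrophage-like, microglia-like, T-like, B-like and endothelial-like cells, one point per library with its 95% Poisson interval. Per cell, microglia-like cells stand highest in each library; in CPM, T-like cells stand above both phagocyte classes in each library.

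Between libraries the phagocyte sums had CPM ratios of 0.647 (0.612 to 0.684) for G-HD over PBS, 0.931 (0.882 to 0.984) for MPG-HD over PBS and 1.44 (1.37 to 1.52) for MPG-HD over G-HD. In macrophage-like cells 3 of 7 measured members were lower in G-HD than in PBS (Mbp, Mobp and Mal), where 13.8% of all genes passed. For MPG-HD over PBS 1 of 7 was higher (Mag) and 1 lower (Mal), against 9.97% of all genes. For MPG-HD over G-HD 5 of 7 were higher (Mog, Mag, Mobp, Cldn11 and Mal), against 10.4%. Mbp in macrophage-like cells stood at 144, 89.5 and 123 CPM, with a G-HD over PBS ratio of 0.620 (0.566 to 0.679). Mag, with 28, 54 and 64 UMIs, had an MPG-HD over G-HD ratio of 1.94 (1.33 to 2.84), while the intervals of Mog, 1.64 (0.852 to 3.15), and Mobp, 1.56 (0.993 to 2.45), reached below 1.

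In microglia-like cells 1 of 5 measured members passed for G-HD over PBS, where Mbp was lower (0.560, interval 0.494 to 0.634; 12.7% of all genes). None of 5 passed for MPG-HD over PBS or for MPG-HD over G-HD, against 10.6% and 10.5% of all genes. Mbp in microglia-like cells stood at 231, 129.6 and 191 CPM and Cnp at 88.3, 97.6 and 75 CPM, so the order of the libraries differed between these genes. Among 13 measured oligodendrocyte genes in macrophage-like cells, Aspa, Tubb4a and Bcas1 were lower in G-HD than in PBS and none was higher. Car2, Cryab, Tubb4a, Plekhb1, Bcas1 and Klk6 were higher in MPG-HD than in G-HD, and Cd9 was lower.

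The phagocyte sum was lowest in G-HD and highest in PBS, and the share of oligodendrocyte-like cells was lowest in G-HD and highest in MPG-HD. The order of PBS and MPG-HD in the phagocyte sum depended on the setting. With equal weight per cell or without Mbp, MPG-HD stood above PBS, as given below. All kept cells together held 89.1, 42.0 and 104 member UMIs per cell in PBS, G-HD and MPG-HD. Mbp in lymphoid cells was lower in both treated libraries than in PBS, with CPM ratios of 0.526 (0.421 to 0.659) for G-HD and 0.516 (0.383 to 0.691) for MPG-HD. For MPG-HD over G-HD the ratio of lymphoid Mbp was 0.981 (0.735 to 1.30). These are values of Mbp alone. The lymphoid member sum in CPM, given above, was highest in PBS and lowest in MPG-HD, and the B-like share of lymphoid cells differed between libraries. The part of the cell mix in the phagocyte values was not tested.

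The macrophage-like clusters did not carry the members alike. Cluster 1, led by Mmp12 and Fabp4 (153, 419 and 193 cells), held 3.43, 2.85 and 3.59 member UMIs per cell, and cluster 2, led by Folr2 and C1q genes (148, 171 and 194 cells), 3.33, 2.60 and 3.25. Cluster 6, led by class II genes, Clec10a and Lyve1 (64, 132 and 105 cells), held 3.61, 1.62 and 2.50. The G-HD library was lowest in each of the 3 clusters, with CPM ratios over PBS of 0.745 (0.672 to 0.827), 0.849 (0.745 to 0.967) and 0.432 (0.357 to 0.522). Mal stood apart in cluster 6 of PBS, where 25 UMIs in 14.1% of 64 cells made up most of the 34 Mal UMIs of PBS macrophage-like cells. Of 13 lipid-laden phagocyte genes in macrophage-like cells, 1 was higher in G-HD than in PBS (Plin2), where 13.8% of all genes passed, and 4 were lower in MPG-HD than in G-HD (Lpl, Fabp4, Plin2 and Spp1), where 10.4% passed. Of 13 lysosome genes 1 was higher in G-HD than in PBS (Lamp1), and none passed for MPG-HD over G-HD.

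The make-up of the member UMIs in oligodendrocyte-like cells differed from that in phagocytes, lymphoid cells and endothelial-like cells. It did not divide all classes by whether they make myelin. Cnp and Mbp led in Schwann-like cells, and Cldn11 led in fibroblast-like cells. Mbp was 26.0% of member UMIs in oligodendrocyte-like cells (25.9 to 26.1) and 60.7% in phagocytes (59.6 to 61.8), over the 3 libraries together. In single libraries the phagocyte share was 65.7, 57.0 and 60.2% against 25.2, 26.2 and 26.4% in oligodendrocyte-like cells. Lymphoid cells had 54.9% and endothelial-like cells 62.3%. Mag was 11.4% of member UMIs in oligodendrocyte-like cells and 2.99% in phagocytes, and Cldn11 21.5% and 7.26%. Phagocytes thus did not carry the members in the proportions of intact oligodendrocyte-like cells.

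An unnamed cluster of low-UMI cells had a make-up nearer to that of phagocytes. Cluster 13 (58, 36 and 71 cells, median 997 UMIs) was led by Mbp, and Mbp made up 78.0% of its member UMIs. Cnp is present in B-like cells of G-HD at 705 CPM, so the lymphoid make-up was also taken without it. Without Cnp, Mbp was 79.7% of the rest in phagocytes, 88.1% in lymphoid cells, 83.1% in cluster 13 and 32.2% in oligodendrocyte-like cells.

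**Figure D5:**
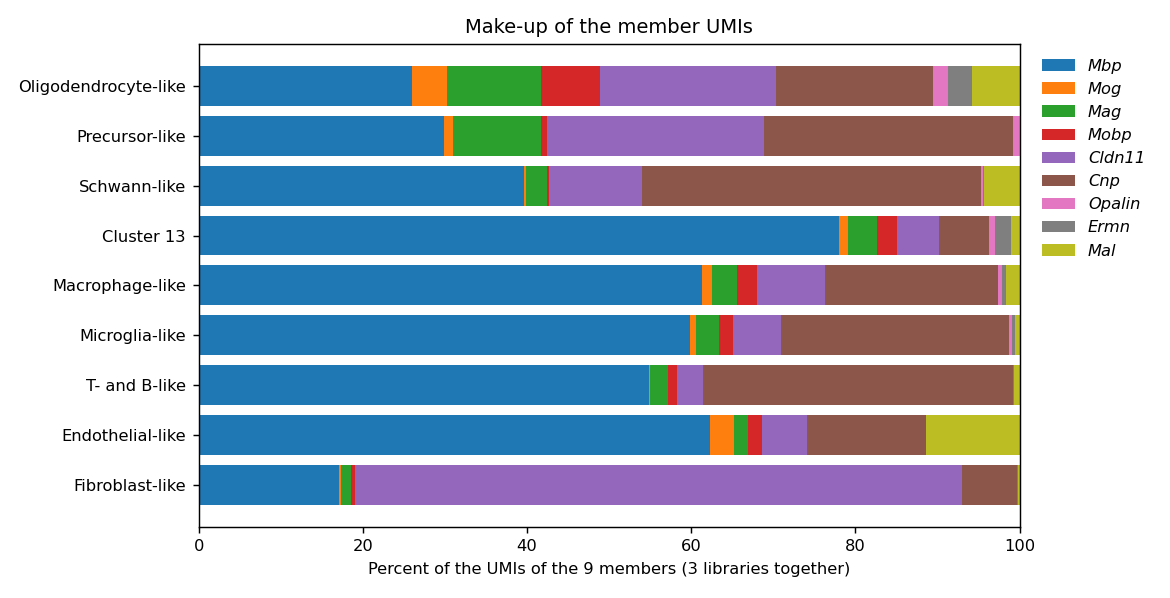
Share of each member in the UMIs of the 9 members, in percent, by cell class, with the 3 libraries together. Mbp is the widest segment in phagocytes, lymphoid cells, endothelial-like cells and cluster 13, and Cldn11 in fibroblast-like cells; oligodendrocyte-like cells show all 9 members.

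Genes whose pattern was most like that of the members, over 27 class-by-library sums, were Kif1a (Pearson r 0.976 with the member sum on log2 CPM with 5 added), Lzic (0.968), Pde4dip (0.958), Luzp2 (0.957) and Tram1l1 (0.953), among 10763 genes. The sums of a library share its depth and its free RNA, so these values are descriptions. Of the members themselves, Mbp (0.975) and Mag (0.972) were closest to the sum, which they help make, and Ermn (0.650) and Mal (0.697) farthest. Kif1a, a kinesin motor, stood at a mean of 283 CPM in oligodendrocyte-like cells and 0.422 CPM in phagocytes.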

How the data were processed

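The matrices as deposited hold UMI counts, whole numbers that the authors had not normalized, for 3 libraries of 1 condition each. GRCm38 and mm10, which are mouse builds, and Cell Ranger 3.0.2 stand in the submitters' processing notes. The matrix headers name version 3.1.0 and all features are rat Ensembl genes, so the build used for these rat counts is not given in the sources used here. Total counts were 16081082 (PBS), 26289759 (G-HD) and 23988263 (MPG-HD) UMIs. Kept cells had 200 or more genes and no more than 20% of UMIs from mitochondria. Scrublet (Scanpy 1.11.5) called 14 cells, 0.241%, against 6% set, and was taken as not having worked; the called cells were removed.

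Counts scaled to 10000 UMIs per cell were log-transformed, and 2000 variable genes without the 9 members gave 30 components and a graph of 20 neighbours, split by Leiden at resolution 0.8 (leidenalg 0.10.2). A cluster took the class whose markers scored highest against the mean of the other clusters, if at least 3 were found in at least 20% of its cells; clusters led by cell cycle genes, by another class's markers or by granulocyte precursor genes, and low-UMI clusters, stayed unnamed. This naming rule was set after the clusters were seen. The members, lists, markers and comparisons were chosen with earlier results of these data known. All 9 members are named, with the genes most like them and up to 4 genes per list by UMIs, and further genes past the fold by name. Some genes that these rules select are not reported here.

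Class sums gave CPM with exact Poisson intervals, shares exact (Clopper-Pearson) binomial intervals and ratios exact conditional intervals, all at 95%. These cover counting error only, since cells are not replicates. Members were compared where both sums together held at least 30 UMIs. The ratio procedure was tested on simulated data. Promoter letters came from RefSeq (GRCr8).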

Additional observations from a re-analysis of the deposited data

Results flagged for a closer look

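Member UMIs appeared in cells that no comparison of named classes used. In cluster 13, low-UMI cells nearest to oligodendrocytes, Mbp stood at 38486 CPM in PBS (24697 in G-HD and 39773 in MPG-HD), above the level of oligodendrocyte-like cells in each library. The other members stood in PBS cells of cluster 13 at 492 CPM (Mog), 2039.7 CPM (Mag), 1196 CPM (Mobp), 2884 CPM (Cldn11), 3376 CPM (Cnp), 492 CPM (Opalin), 1097 CPM (Ermn) and 591 CPM (Mal), all at or below the oligodendrocyte-like level. Mal stood at 933 CPM in PBS cells of cluster 19, which is led by the granule genes Elane, Mpo and Ctsg, with 100, 68.0 and 76.9% of its 20, 25 and 13 cells, in library order PBS, G-HD, MPG-HD, holding a Mal UMI. Cnp stood at 824 CPM in the 3 PBS cells of cluster 22, which Siglech and Irf8 help lead, and at 869 and 935 CPM in its 14 G-HD and 6 MPG-HD cells. A member was flagged in an unnamed cluster if it had at least 10 UMIs there in each library. Its CPM interval also had to lie above those of macrophage-like, microglia-like, lymphoid, endothelial-like and fibroblast-like cells of the same library. No library was free of the injury.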

How the results depend on the processing

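No paired analysis was possible because each condition is 1 library, and for the same reason no library could be left out. The member sum of oligodendrocyte-like cells stayed near 1 under every alternative. For G-HD over PBS it was 1.02 with equal weight per cell, 0.985 at resolution 1.2, 0.971 with a stricter filter (500 genes or more, 10% mitochondrial UMIs or less), 1.04 without the 6% highest doublet scores, 1.01 without Mbp, 0.999 by UMIs per cell and 1.02 with cluster 13 counted in. For MPG-HD over PBS it was 0.958 with equal weight, 0.995 without the top cell of each library, 0.965 with members among the variable genes, 0.963 at resolution 1.2, 0.956 with the stricter filter, 0.958 without Mbp and 0.982 by UMIs per cell. For MPG-HD over G-HD it was 0.959 without the top cell, 0.977 at resolution 1.2, 0.985 with the stricter filter, 0.932 without the highest doublet scores, 0.983 by UMIs per cell and 0.958 with cluster 13.

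The phagocyte sum for G-HD over PBS was 0.812 without Mbp, 0.595 without Cnp and 0.724 by UMIs per cell. For MPG-HD over PBS it was 1.05 with equal weight per cell and 1.08 without Mbp. For MPG-HD over G-HD it was 1.61, 1.33, 1.55 and 1.30 with equal weight, without Mbp, without Cnp and by UMIs per cell. The phagocyte over lymphoid ratio turned below 1 in PBS, G-HD and MPG-HD when cells were thinned to 1000 UMIs (0.312, 0.230 and 0.487), by CPM (0.324, 0.251 and 0.517), with equal weight per cell (0.328, 0.246 and 0.630) and against neutrophil-like, endothelial-like and fibroblast-like cells pooled (0.278, 0.315 and 0.404). Fibroblast-like cells, which carry Cldn11, held most member UMIs of that pool, and against endothelial-like cells alone the ratio stayed above 1. The lymphoid ratio was 1.26 in PBS and 2.56 in MPG-HD without the top cell, 1.29 in PBS and 1.06 in G-HD without Mbp, and 1.93 in G-HD without Cnp.

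Over the 5 classes with a background, 10, 5 and 12 member values passed 1.5-fold for G-HD over PBS, MPG-HD over PBS and MPG-HD over G-HD. Of these, 6, 2 and 6 were of precursor-like cells. Over the classes, the share of all genes that passed ran from 12.2 to 27.3%, 9.97 to 19.0% and 10.1 to 18.5%. It was highest in precursor-like cells each time. At 2-fold the count of member values was 2 for MPG-HD over PBS and 4 for MPG-HD over G-HD. With a minimum of 10 UMIs it was 12 and 19. No share over all genes was taken at these settings. At resolution 1.2 and with the stricter filter, where cells of the Enpp6 kind are named oligodendrocyte-like, the precursor sum for G-HD over PBS reversed to 1.15 and 1.19. Cldn11 then reversed to 1.93 and 2.19 for G-HD over PBS and to 0.916 and 0.840 for MPG-HD over G-HD, and Mbp for G-HD over PBS to 1.30 with the stricter filter. Mbp for MPG-HD over G-HD reversed to 0.932 with equal weight per cell. The causes were not tested. The alternatives without Cnp, with T-like cells alone as the reference (1.02, 1.44 and 2.15) and with cluster 13 counted in were chosen after the data were seen. Of 787 values of single members and class sums under the alternatives, 711 stayed on the same side of 1 and 8 of the called ones reversed, all in precursor-like cells and given here. Members with under 30 UMIs under an alternative gave no value there.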

Other observations

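Fibroblast-like cells carried Cldn11, the tight junction gene that the barrier cells of the meninges also use, far above the other members. It stood at 927, 735 and 521 CPM in PBS, G-HD and MPG-HD, found in 58.5, 54.9 and 59.9% of 135, 235 and 167 cells, and made up 73.9% of their member UMIs. All 3 fibroblast-like clusters carried it. Cluster 9, led by Igf2, stood at 216, 232 and 449 CPM, cluster 12, led by Smoc2, at 1233, 598 and 335 CPM, and cluster 14, led by Sfrp2 and Eln, at 887, 1793 and 916 CPM. The order of the libraries differed between these clusters: PBS was highest in cluster 12, G-HD in cluster 14 and MPG-HD in cluster 9, where 1 cell held 34.9% of the Cldn11 UMIs.

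Cycling cells of cluster 10 (39, 95 and 67) held 6.97, 6.47 and 7.28 member UMIs per cell, more than the phagocytes, and Cnp among them stood at 189, 222 and 198 CPM. At the finer clustering 31 of these cells joined the Pdgfra group of precursors. That group held 312 (PBS), 1162 (G-HD) and 1104 (MPG-HD) member UMIs. Cells of the precursor-like class held 206, 753 and 833 of them, and the 31 cycling cells held the rest. The excess over phagocytes was not taken without these 31 cells, so it is not shown for cycling cells in general.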
